A study of Mus musculus with 90 samples.

Results

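The genes that encode proteasome subunits were followed across the hippocampus and frontal cortex of APP/PS1 mice given an antisense oligonucleotide (ASO) against Cd33 or a control ASO. They were taken as every probe whose gene symbol on the platform starts with Psma, Psmb, Psmc or Psmd followed by a digit, apart from Psmb8 and Psmb9. The rule found 33 genes among 13076 named genes and 48 probes among 25697 probes. Of these genes, 32 encode a subunit or an assembly chaperone. The remaining one, Psmc3ip, is not a subunit and encodes a factor of meiotic recombination. All 33 genes had a probe above background on enough arrays to be tested, and 1 of the 48 probes, the second one of Psmd5, was detected on 0 arrays and was left out. Psma1, Psma6, Psma8, Psmb11 and Psmd3 were not analysed here.

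The proteasome is the large protease that degrades proteins tagged with ubiquitin. Its 20S core is a barrel of stacked rings, in which outer alpha rings gate the entrance and inner beta rings hold the cutting sites. The 19S cap has a base with ATPases that unfold the substrate and a lid that removes ubiquitin chains. Amyloid models are often examined for this machinery because protein aggregates accumulate in them, and in immune-activated cells a catalytic subunit can be exchanged for an inducible one, which forms the immunoproteasome.

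All animals were double transgenic for the human APP and PS1 genes of familial Alzheimer disease, so that the control ASO groups carried the same transgenes, surgery and pump as the CD33 ASO groups. An ASO is a short piece of modified nucleic acid that pairs with a transcript and leads to its loss, and the control ASO had no target. Either one was infused at 40 µg per day, in 6 µL per day, into the right lateral ventricle from 18 weeks of age, for 14 or 28 days. RNA was taken at 22 weeks from the left hippocampus and a left piece of frontal cortex, so animals of the 14-day cohort had been without a pump since the end of their infusion and those of the 28-day cohort had been given a second pump. In the frontal cortex the CD33 ASO and control ASO groups had 14 and 14 arrays at 28 days, and 9 and 9 at 14 days. In the hippocampus they had 13 and 13 arrays at 28 days, and 9 and 9 at 14 days. The 90 arrays came from 47 animals, of which 43 gave both tissues, and arrays of 1 tissue and group were of separate animals.

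Cd33 itself fell under the CD33 ASO in the hippocampus, with a log2 difference from the control ASO of -1.46 ± 0.14 at 28 days and -1.29 ± 0.17 at 14 days (estimate ± SE, adjusted p from limma 5.48e-09 and 2.80e-05). In the frontal cortex its difference was -0.90 ± 0.13 at 28 days (adjusted p = 5.08e-05) and -0.69 ± 0.17 at 14 days (adjusted p = 0.327). In 1 CD33 ASO animal of the 28-day cohort Cd33 lay within the control range in both tissues. Between 42.8% and 51.6% of the probes were detected per array, and the arrays sat on 12 chips, 6 for each tissue. Each chip held all 4 groups of 1 tissue, so chip and tissue cannot be told apart. The tissue labels were borne by Spink8 and Prox1, hippocampal genes that differed by -3.75 and -2.44 between cortex and hippocampus under the CD33 ASO on the log2 scale, and by Tbr1 and Cux2, cortical genes that differed by 1.11 and 1.43. Wfs1, also on the hippocampal list, and the cortical genes Fezf2 and Bcl11b went the other way. In such bulk samples, fewer cells of a type and less RNA per cell cannot be told apart.

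The sequence before the transcription start is shown for 4 of the genes that passed the tissue tests below under both ASOs. They are Psmc5, Psmb10 and Psma4, whose chip means did not overlap between tissues, and Psmb5, whose chip means did overlap. Psmb5, a catalytic subunit, is shown because its window holds a motif that was searched. The sequences are RefSeq's, from GRCm38.p6, 250 bases up to the transcription start that the promoter table gives, 5′ to 3′ along the gene's strand. For Psma4 and some other genes that start lies inside the gene, past its outermost annotated end. Capitals mark a match to TGACNNNGC, the core of the antioxidant response element that NFE2L1, an activator of proteasome genes, can bind.
Psmb5, chr14:54617996-54618245, minus strand: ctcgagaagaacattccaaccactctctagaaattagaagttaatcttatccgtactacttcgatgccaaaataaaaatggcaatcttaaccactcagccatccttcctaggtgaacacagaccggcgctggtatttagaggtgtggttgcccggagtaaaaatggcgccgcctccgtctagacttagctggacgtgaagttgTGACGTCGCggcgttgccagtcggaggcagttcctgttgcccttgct
Psmc5, chr11:106255935-106256184, plus strand: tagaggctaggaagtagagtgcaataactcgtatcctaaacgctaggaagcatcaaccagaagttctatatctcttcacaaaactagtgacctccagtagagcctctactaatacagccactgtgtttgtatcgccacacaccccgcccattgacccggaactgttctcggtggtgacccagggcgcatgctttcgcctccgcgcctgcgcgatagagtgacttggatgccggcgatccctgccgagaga
Psmb10, chr8:105938393-105938642, minus strand: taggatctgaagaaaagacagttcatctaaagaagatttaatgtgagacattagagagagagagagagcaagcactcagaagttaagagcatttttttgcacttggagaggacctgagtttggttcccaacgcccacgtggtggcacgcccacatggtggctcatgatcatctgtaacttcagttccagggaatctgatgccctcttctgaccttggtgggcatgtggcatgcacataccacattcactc
Psma4, chr9:54950609-54950858, plus strand: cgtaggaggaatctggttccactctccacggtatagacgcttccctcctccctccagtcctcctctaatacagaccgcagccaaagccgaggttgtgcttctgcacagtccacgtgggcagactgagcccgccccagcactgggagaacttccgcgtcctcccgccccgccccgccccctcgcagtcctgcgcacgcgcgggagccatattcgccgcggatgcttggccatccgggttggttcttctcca
A window was on hand for 28 of the 33 genes. Both strands were searched for TGACNNNGC and for CCAAT, the letters that the factor NF-Y reads, and no match of one motif overlapped the other. TGACNNNGC stood in 5 of the 28 windows (17.86%), those of Psmb5, Psmb6, Psmc6, Psmd12 and Psmd9, against 11.52% of 27025 genes with a window of this length. In Psmb5 the match starts 47 bases before the transcription start. CCAAT stood in 10 of 28 windows (35.71%), against 37.49% of all genes. A match is a string of letters and not a measured binding site.

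Most of these genes were detected on every array and varied less between arrays than the median gene. On the normalized log2 scale, 30 of the 33 tested probes were detected on all 90 arrays. The exceptions were Psmd6, detected on 88 arrays, Psmd2, on 85, and Psmc6, on 17. The median SD between arrays of a group was 0.106 in frontal cortex and 0.102 in hippocampus, against 0.189 and 0.185 over all 9741 genes tested, and 25 of the 33 genes lay below the all-gene median in each tissue. The steadiest gene in hippocampus had an SD of 0.068 and the most variable one 0.465. Whether the low spread goes with the signal level of these genes was not tested. After group means were removed, the 528 pairs of these genes had a median Pearson correlation across arrays of 0.046 in frontal cortex and 0.109 in hippocampus, and of 0.089 and 0.148 once chip means were removed as well. The same genes paired with all other genes had a median near 0 (-0.006 in frontal cortex and -0.004 in hippocampus). These correlations are descriptive, since the pairs share arrays and chips.

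The first question was whether lowering Cd33 went with a different level of the proteasome genes. With limma, 0 of the 33 genes passed an adjusted p of 0.05 in each of the 4 comparisons of the CD33 ASO with the control ASO. Of all 9741 genes tested, 0.472% passed in frontal cortex at 28 days, 0% at 14 days, and 0.411% and 0.0205% in hippocampus at 28 and 14 days, so that few calls were made anywhere. At an unadjusted p under 0.05 there were 4 of the 33 genes in frontal cortex at 28 days (all genes 8.63%), 3 at 14 days (5.05%), 0 in hippocampus at 28 days (9.33%) and 4 at 14 days (5.92%). The smallest adjusted p among them was 0.144. These counts stood above the share of all genes in 3 comparisons and below it in the fourth, on at most 4 genes each.

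The intervals show how precisely the differences were estimated. Their span covers the most variable genes too, Psmc6 in cortex (SD 0.50) and Psmd6 in hippocampus (SD 0.47). Psmc6 was not detected in hippocampus, so its interval there bounds no change. In frontal cortex the 95% intervals of the 33 genes spanned -0.53 to 0.36 at 28 days and -0.50 to 0.42 at 14 days on the log2 scale, and in hippocampus -0.33 to 0.38 and -0.53 to 0.33. The estimates themselves were smaller. Their median size was 0.026 and 0.040 in frontal cortex at 28 and 14 days, against 0.052 and 0.058 for all genes, and 0.030 and 0.059 in hippocampus, against 0.054 and 0.059.

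**Figure D1:**
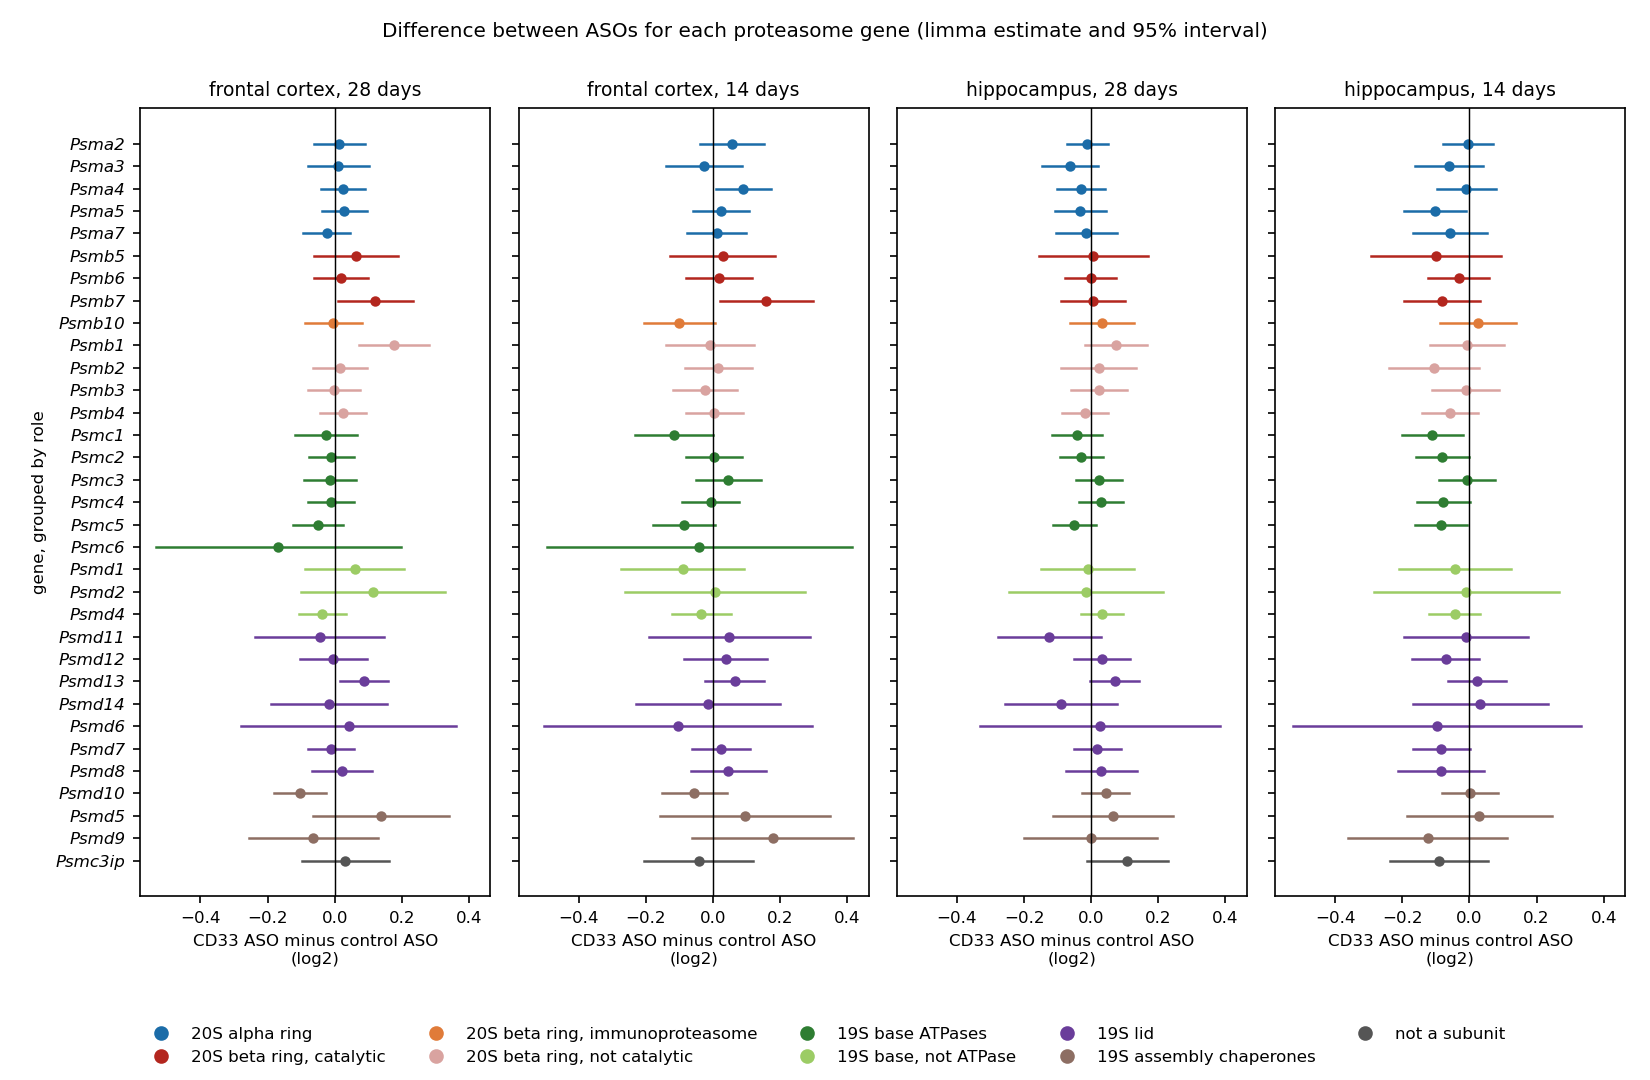
Log2 difference, CD33 ASO minus control ASO, for each proteasome gene (rows, coloured by role) in frontal cortex and hippocampus at 28 and 14 days (4 panels). Points are limma estimates and bars their 95% intervals; Psmc6 is left out of the hippocampal panels, where it was detected on 0 of 44 arrays. No gene passed an adjusted p of 0.05, and in the hippocampus at 14 days 27 of 32 points lie below 0.

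In the core's alpha ring, Psma2, Psma3, Psma4, Psma5 and Psma7 differed little. In frontal cortex at 28 days they lay between -0.024 and 0.029. Psma4 had the lowest p of the ring in cortex, at 14 days, with values of 12.04, 12.23 and 12.28 (lowest, median and highest of 9 arrays) under the CD33 ASO, against 11.96, 12.12 and 12.17 under the control ASO. The groups overlapped, and the difference of 0.091 ± 0.040 had an adjusted p of 0.934. In hippocampus at 14 days Psma5 had 12.57, 12.68 and 12.78 under the CD33 ASO, against 12.64, 12.79 and 12.95 under the control ASO, again with overlap (-0.10 ± 0.046, adjusted p = 0.818).

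Among the beta subunits without a cutting site, Psmb1 stood closest to a call. In frontal cortex at 28 days it had 11.71, 11.93 and 12.21 under the CD33 ASO (lowest, median and highest of 14 arrays), against 11.56, 11.71 and 11.98 under the control ASO. The CD33 ASO arrays lay higher as a group but overlapped the control arrays. The difference was 0.18 ± 0.052 (95% interval 0.071 to 0.28, adjusted p = 0.144). Within chips, with both durations joined, Psmb1 was higher under the CD33 ASO on 5 of 6 cortical and 5 of 6 hippocampal chips. The durations differed, with 6 of 6 chips in each tissue at 28 days alone, and 3 of 6 cortical and 2 of 6 hippocampal chips at 14 days alone. At 14 days in cortex the values were 11.63, 11.79 and 11.99 under the CD33 ASO, against 11.59, 11.88 and 12.03 under the control ASO, so there the medians stood the other way round. In the hippocampus at 28 days Psmb1 had 11.79, 12.03 and 12.25 against 11.77, 11.97 and 12.16 under the control ASO (0.074 ± 0.045, adjusted p = 0.663). At 14 days there it had 11.76, 11.98 and 12.17 under the CD33 ASO, against 11.88, 11.96 and 12.18 under the control ASO. With the mean levels of choroid plexus, red blood cell and pericyte markers as covariates the estimate for cortex at 28 days was 0.093 (adjusted p = 0.544), and the hippocampal one was -0.0024, so the size of both moved with these lists. Psmb2, Psmb3 and Psmb4 had estimates in cortex between -0.024 and 0.025 at both durations.

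The constitutive catalytic subunits are Psmb5, Psmb6 and Psmb7, the chymotrypsin-like, caspase-like and trypsin-like sites. All 3 lay above 0 in frontal cortex at both durations and none passed. Psmb7 had 12.13, 12.30 and 12.57 in cortex at 14 days under the CD33 ASO, against 11.81, 12.14 and 12.41 under the control ASO (0.16 ± 0.069, adjusted p = 0.927). At 28 days it had 12.02, 12.31 and 12.62, against 12.01, 12.19 and 12.33 under the control ASO. Groups overlapped at both durations. With both durations joined, all 6 cortical chips had the higher mean under the CD33 ASO, by 0.008 to 0.32. At 14 days alone 4 of 6 did, and at 28 days alone 5 of 6. The other probes of Psmb7 gave smaller differences in cortex, 0.096 and 0.041 at 14 days and 0.052 and 0.026 at 28 days. In the hippocampus the 3 catalytic subunits lay between -0.099 and -0.032 at 14 days and between -0.002 and 0.006 at 28 days. Psmb10, the inducible trypsin-like subunit of the immunoproteasome, differed by -0.004 and -0.10 in cortex at 28 and 14 days and by 0.032 and 0.025 in hippocampus. Its second probe had 0.14 in hippocampus at 28 days (unadjusted p = 0.018).

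**Figure D2:**
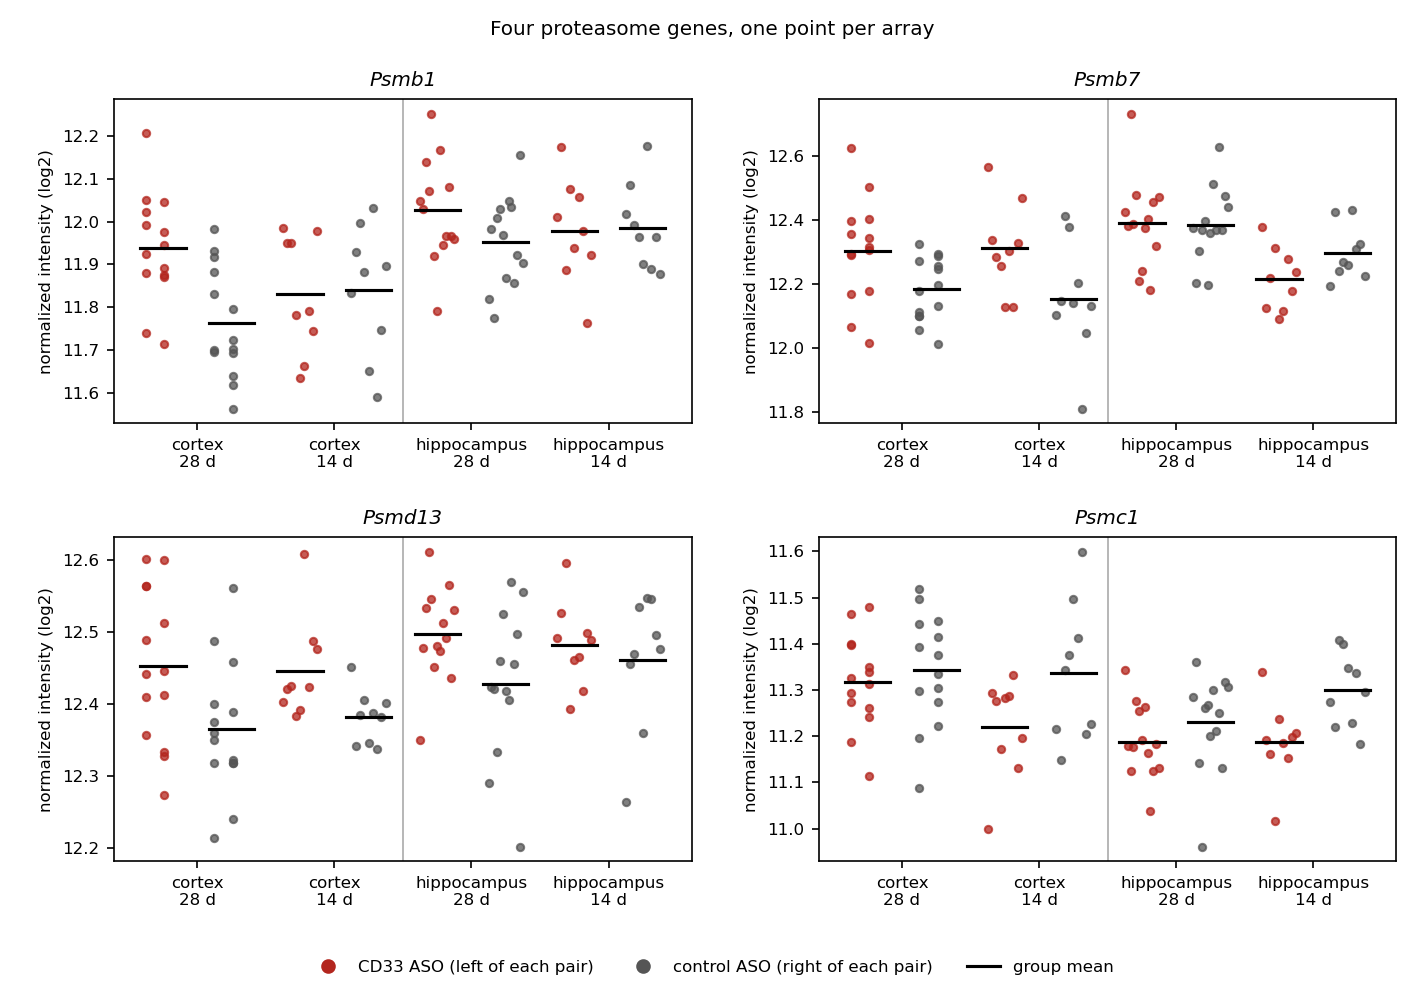
Normalized log2 level of Psmb1, Psmb7, Psmd13 and Psmc1 on each array, by tissue and infusion time; each point is 1 array, CD33 ASO on the left in red and control ASO on the right in grey, and the black line is the group mean. Points of the paired groups overlap in every panel, including Psmb1 in frontal cortex at 28 days, where the medians are 11.93 and 11.71.

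In the cap's base, the ATPases Psmc1 to Psmc6 form the ring that unfolds substrates. In frontal cortex at 28 days Psmc1 to Psmc5 lay between -0.050 and -0.010, and none passed. Psmc6 was detected on 17 of 46 cortical arrays, so its estimate of -0.17 rests mostly on values not above background. Psmc1 in hippocampus at 14 days had 11.02, 11.19 and 11.34 under the CD33 ASO, against 11.18, 11.30 and 11.41 under the control ASO (-0.11 ± 0.045, adjusted p = 0.777). In cortex at 14 days it had 11.00, 11.28 and 11.33, against 11.15, 11.34 and 11.60 under the control ASO (-0.12 ± 0.058, adjusted p = 0.943). The groups overlapped in both tissues. At 28 days the median of Psmc1 was 11.32 under the CD33 ASO and 11.35 under the control ASO in cortex, and 11.18 under the CD33 ASO and 11.26 under the control ASO in hippocampus. Psmc5 in hippocampus at 14 days had 11.96, 12.12 and 12.22 under the CD33 ASO, against 12.08, 12.19 and 12.32 under the control ASO (-0.085 ± 0.038, adjusted p = 0.818). With both durations joined, its mean within chips was lower under the CD33 ASO on 6 of 6 cortical and 5 of 6 hippocampal chips. At 14 days alone it was lower on 4 of 6 hippocampal chips. The base subunits that are not ATPases, the scaffolds Psmd1 and Psmd2 and the ubiquitin receptor Psmd4, lay between -0.037 and 0.11 in cortex at 28 days and between -0.044 and -0.010 in hippocampus at 14 days.

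The lid subunits were Psmd6, Psmd7, Psmd8, Psmd11, Psmd12, Psmd13 and the deubiquitinase Psmd14. Psmd13 had 12.27, 12.44 and 12.60 in cortex at 28 days under the CD33 ASO, against 12.21, 12.36 and 12.56 under the control ASO (0.087 ± 0.035, adjusted p = 0.428). In hippocampus at 28 days it had 12.35, 12.49 and 12.61, against 12.20, 12.42 and 12.57 under the control ASO (0.070 ± 0.036, adjusted p = 0.556). The groups overlapped in both. With both durations joined, all 6 cortical chips had a higher mean of Psmd13 under the CD33 ASO, by 0.029 to 0.11. In hippocampus 5 of 6 chips did. The counts were the same at 28 days alone.

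The assembly chaperones Psmd5, Psmd9 and Psmd10 attach to ATPases while the base is built. Psmd10 (gankyrin) had 10.09, 10.28 and 10.42 in cortex at 28 days under the CD33 ASO, against 10.10, 10.41 and 10.51 under the control ASO (-0.10 ± 0.039, adjusted p = 0.357). Most CD33 ASO arrays lay in the lower part of the control range. All 6 cortical chips had the lower mean under the CD33 ASO, at 28 days alone and with both durations joined. The other probes of Psmd10 gave 0.031 and 0.0004 in this comparison, so they did not share the difference. Psmc3ip, which is no subunit, had 0.11 ± 0.060 in hippocampus at 28 days (adjusted p = 0.606).

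The hippocampus at 14 days was the only comparison of the 4 in which the estimates leaned to one side. Of the 32 genes detected there, 5 lay above 0 and 27 below, with a median of -0.058, where 51.5% of all genes lay above 0 and their median was 0.003. The estimates ran from -0.12 (Psmd9) to 0.033 (Psmd14). All 5 alpha genes, all 4 beta genes without a cutting site and all 3 catalytic ones were below 0. The genes share arrays, so the count is not 32 separate observations. Without the array of replicate 9 of the CD33 ASO group, chosen after the data were seen because several of these genes were low on it, the median was -0.046 over 33 genes, with 6 above 0. In the other comparisons 17 (cortex, 28 days), 19 (cortex, 14 days) and 17 (hippocampus, 28 days) of the 33 genes lay above 0, with medians of 0.010, 0.007 and 0.005.

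Infusion for 28 days was set against 14 days within each ASO. These comparisons share their arrays with the ASO comparisons above. With limma, 0 of the 33 genes passed in each of the 4, where 0% of all genes passed in cortex under either ASO, and 0.0308% and 0.0205% in hippocampus under the CD33 ASO and the control ASO. At an unadjusted p under 0.05 there were 1 and 0 of the 33 genes in cortex under the CD33 ASO and the control ASO (all genes 5.18% and 4.57%), and 3 and 2 in hippocampus (9.60% and 10.9%). In hippocampus under the CD33 ASO 28 of 32 detected genes lay above 0, with a median of 0.025, while 49.0% of all genes did. Psmb7 had 12.18, 12.39 and 12.73 there at 28 days, against 12.09, 12.22 and 12.38 at 14 days (0.17 ± 0.052, adjusted p = 0.197). Psmb5 had 10.48, 10.76 and 11.33 at 28 days, against 10.43, 10.53 and 10.85 at 14 days (0.23 ± 0.089, adjusted p = 0.390). Psmc3 differed by 0.084 ± 0.038 (adjusted p = 0.469). The upper ends were higher at 28 days and the groups overlapped. Under the control ASO 11 of the 32 genes lay above 0 in hippocampus, and the 3 of smallest p were Psmc4 (-0.098 ± 0.036, adjusted p = 0.293), Psmb2 (-0.13 ± 0.061, adjusted p = 0.421) and Psmc3ip (-0.12, adjusted p = 0.529).

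In frontal cortex 18 of 33 genes lay above 0 under the CD33 ASO and 19 under the control ASO. The 3 of smallest p under the CD33 ASO were Psmd9 (-0.22 ± 0.11, adjusted p = 0.949), Psmc1 (0.098) and Psmb1 (0.11). Under the control ASO they were Psmb10 (-0.078), Psmd6 (-0.28) and Psmc3 (0.062), and Psmc3 had an adjusted p of 0.990. The duration of infusion thus went with no called change.

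Whether the ASO difference itself depended on duration or tissue was tested by interaction terms of limma, and 0 of the 33 genes passed in each. At an unadjusted p under 0.05 there were 1 for duration in cortex (all genes 2.68%), 2 for duration in hippocampus (4.71%) and 4 between the tissues (7.19%). Between 28 and 14 days in cortex the smallest p was that of Psmb1, whose ASO difference was larger at 28 days by 0.18 ± 0.083 (adjusted p = 1.00). Psmd9 (-0.24) and Psmb10 (0.095) came next. In hippocampus 26 of the 32 detected genes had the higher ASO difference at 28 days, and 51.8% of all genes did, where 0% of all genes passed. Psmc4 (0.11 ± 0.050, adjusted p = 0.972), Psmc3ip (0.20) and Psmd7 (0.10) had the smallest p there. Between the tissues, with both durations joined, 26 of 33 genes had the higher ASO difference in cortex, while 47.2% of all genes did and 0.0103% passed. Both counts use the 14-day hippocampal arrays that gave the lean described above, so they are not separate observations of it. Psmb7 had the largest such term, 0.18 ± 0.053 (adjusted p = 0.474), followed in p by Psmd10 (-0.10 ± 0.037, adjusted p = 0.618) and Psma5 (0.093 ± 0.036, adjusted p = 0.642). By the group means, the other probes of Psmb7 had smaller terms in the same direction. The other probes of Psmd10 went the opposite way to the tested one.

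Frontal cortex and hippocampus differed for a majority of the genes, in both directions. With the animal as a random block, 20 of 33 genes passed under the CD33 ASO, of which 9 were higher and 11 lower in cortex, and 22 passed under the control ASO, of which 8 were higher and 14 lower. Of all genes tested, 63.8% passed under the CD33 ASO (29.7% higher and 34.1% lower) and 65.3% under the control ASO (30.7% higher and 34.6% lower), so the proteasome genes were called about as often as any gene. Their differences were small, with a median size of 0.11 and 0.10 on the log2 scale, against 0.16 and 0.17 for all genes. With the authors' processed log2 values, in which the median of all genes lay 0.055 and 0.057 above 0 instead of near 0, 18 genes passed under each ASO, 14 higher and 4 lower under the CD33 ASO and 10 higher and 8 lower under the control ASO. The split between directions thus differed with the authors' processing, and the cause was not tested. Called under both ASOs were 17 genes, 8 higher in cortex (Psmd6, Psmc5, Psmc6, Psmc1, Psma3, Psmb10, Psmd14 and Psmd10) and 9 lower (Psmb1, Psmb5, Psmb4, Psmd5, Psmc3, Psmb3, Psmb2, Psma4 and Psmd1). Psmc6 is in these counts, and in the 20 and 22 above, although it passed the detection filter through cortical arrays alone. The filter thus favoured its direction. Psmd4, Psmd7 and Psmc3ip passed under the CD33 ASO, and Psmb7, Psmd13, Psma7, Psmc2 and Psma5 under the control ASO, but 0 genes passed the test of the difference between ASOs.

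**Figure D3:**
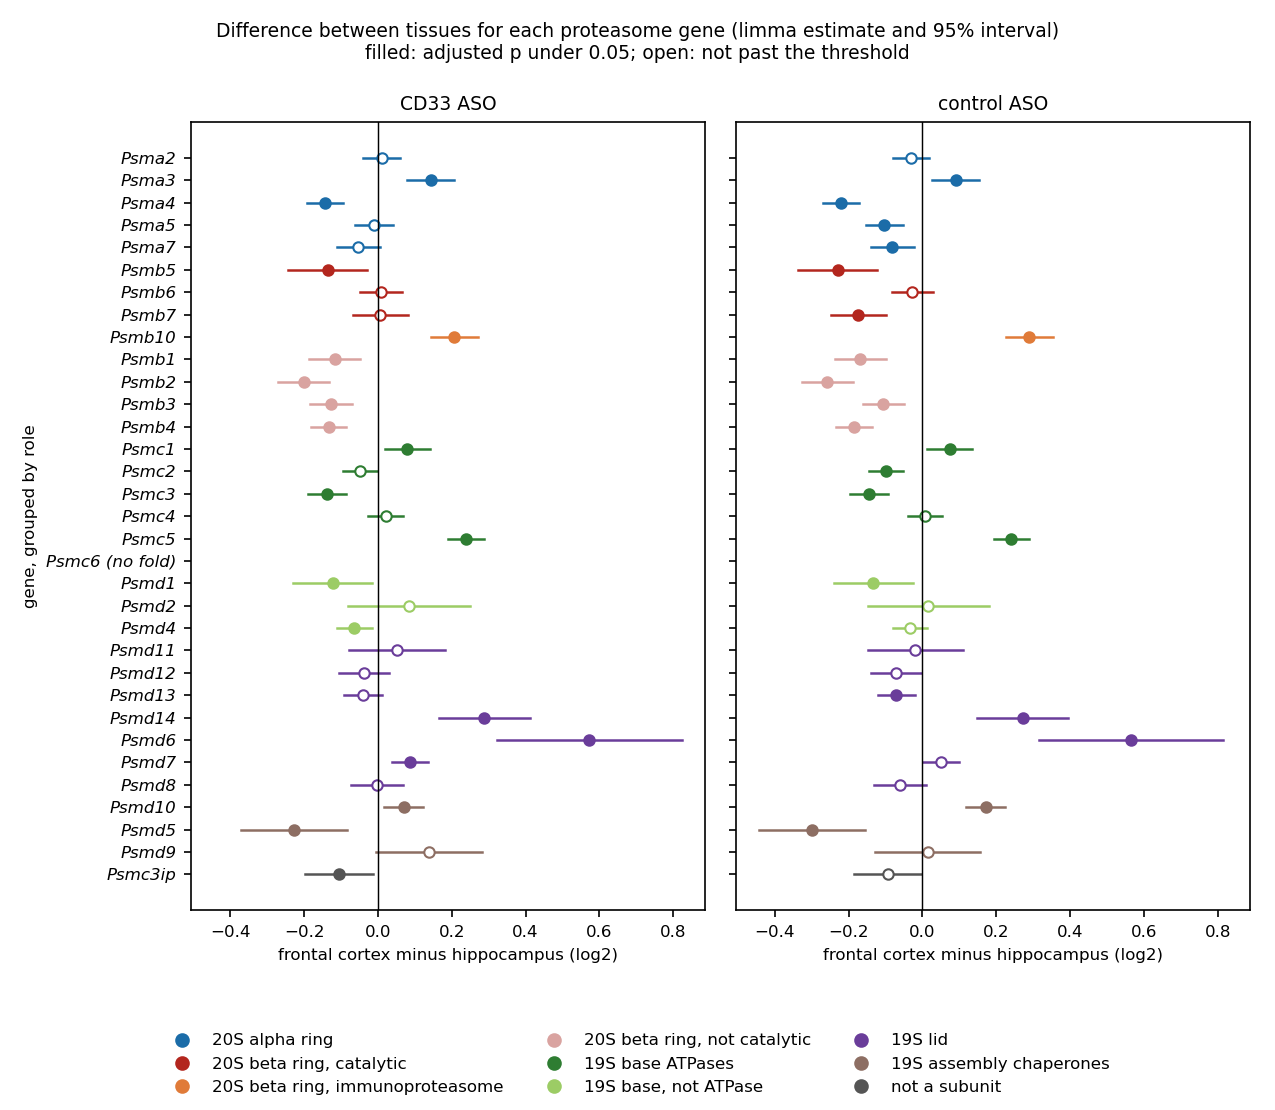
Log2 difference, frontal cortex minus hippocampus, for each proteasome gene under the CD33 ASO (left panel) and the control ASO (right panel), with 95% intervals; filled points have an adjusted p under 0.05. Genes lie on both sides of 0, with Psmd6 farthest to the right (0.57 and 0.56) and Psmd5 farthest to the left (-0.23 and -0.30); no fold is drawn for Psmc6.

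Among the alpha genes Psma4 was the clearest, lower in cortex by every scaling. Its levels were 12.03, 12.21 and 12.29 in cortex (lowest, median and highest), against 12.18, 12.33 and 12.49 in hippocampus, under the CD33 ASO. Under the control ASO they were 11.96, 12.14 and 12.31 in cortex, against 12.05, 12.35 and 12.53 in hippocampus. The difference was -0.14 ± 0.024 (adjusted p = 3.80e-07) and -0.22 ± 0.024 (adjusted p = 3.41e-13), and 41 of 43 animals had the lower value in cortex. Psma3 went the other way, by 0.14 ± 0.032 and 0.090 ± 0.032, and with median scaling the control ASO value of 0.065 did not pass (adjusted p = 0.0776). Psma5 and Psma7, called under the control ASO, did not pass with the authors' values.

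All 4 measured beta genes without a cutting site were lower in cortex under both ASOs, although Psmb3 did not pass with the authors' values under either ASO (-0.057 and -0.037), nor Psmb1 under the CD33 ASO (-0.055, adjusted p = 0.170). Psmb2 had 11.97, 12.15 and 12.38 in cortex, against 12.14, 12.37 and 12.49 in hippocampus, under the CD33 ASO (-0.20 ± 0.035, adjusted p = 5.07e-07). Its second probe gave -0.23 and -0.29 under the CD33 ASO and the control ASO, and was lower in 42 of 43 animals. Psmb4 had 13.22, 13.41 and 13.50 in cortex, against 13.36, 13.58 and 13.73 in hippocampus, under the control ASO (-0.19 ± 0.024, adjusted p = 1.26e-10). Its cortical values were lower in 41 of 43 animals, and those of Psmb1 in 37 and Psmb3 in 36.

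Of the catalytic genes, Psmb5 fell in cortex and Psmb6 had no call. Psmb5 had 10.29, 10.59 and 10.89 in cortex, against 10.43, 10.71 and 11.33 in hippocampus, under the CD33 ASO (-0.14 ± 0.054, adjusted p = 0.0226), and 10.25, 10.53 and 11.01, against 10.46, 10.74 and 11.42, under the control ASO (-0.23 ± 0.054, adjusted p = 0.000131). With the authors' values the CD33 ASO difference was -0.088 (adjusted p = 0.145). Psmb7 had -0.17 ± 0.037 under the control ASO and 0.006 ± 0.037 under the CD33 ASO, while its other probes gave -0.06 and -0.05 under the control ASO.

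Psmb10 was higher in cortex by each scaling. Under the CD33 ASO it had 10.58, 10.78 and 10.95 in cortex, against 10.33, 10.56 and 10.85 in hippocampus (0.21 ± 0.032, adjusted p = 3.79e-08). Under the control ASO it had 10.56, 10.84 and 11.03, against 10.26, 10.54 and 10.72 in hippocampus (0.29 ± 0.032, adjusted p = 4.46e-13). The cortical value was the higher one in 42 of 43 animals, and the second probe gave 0.14 and 0.25. All 9 of 9 tested microglial markers were called higher in cortex too, with a median of 0.54 under the CD33 ASO and 0.62 under the control ASO. Their list means were 10.10 to 10.71 in cortex against 9.42 to 10.19 in hippocampus under the CD33 ASO. Of the 7 tested endothelial markers, 5 and 4 were called higher under the CD33 ASO and the control ASO and 0 lower (medians 0.17 and 0.16). Of all genes, 29.7% and 30.7% were called higher. The part of these cell types in the level of Psmb10 was not tested.

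**Figure D4:**
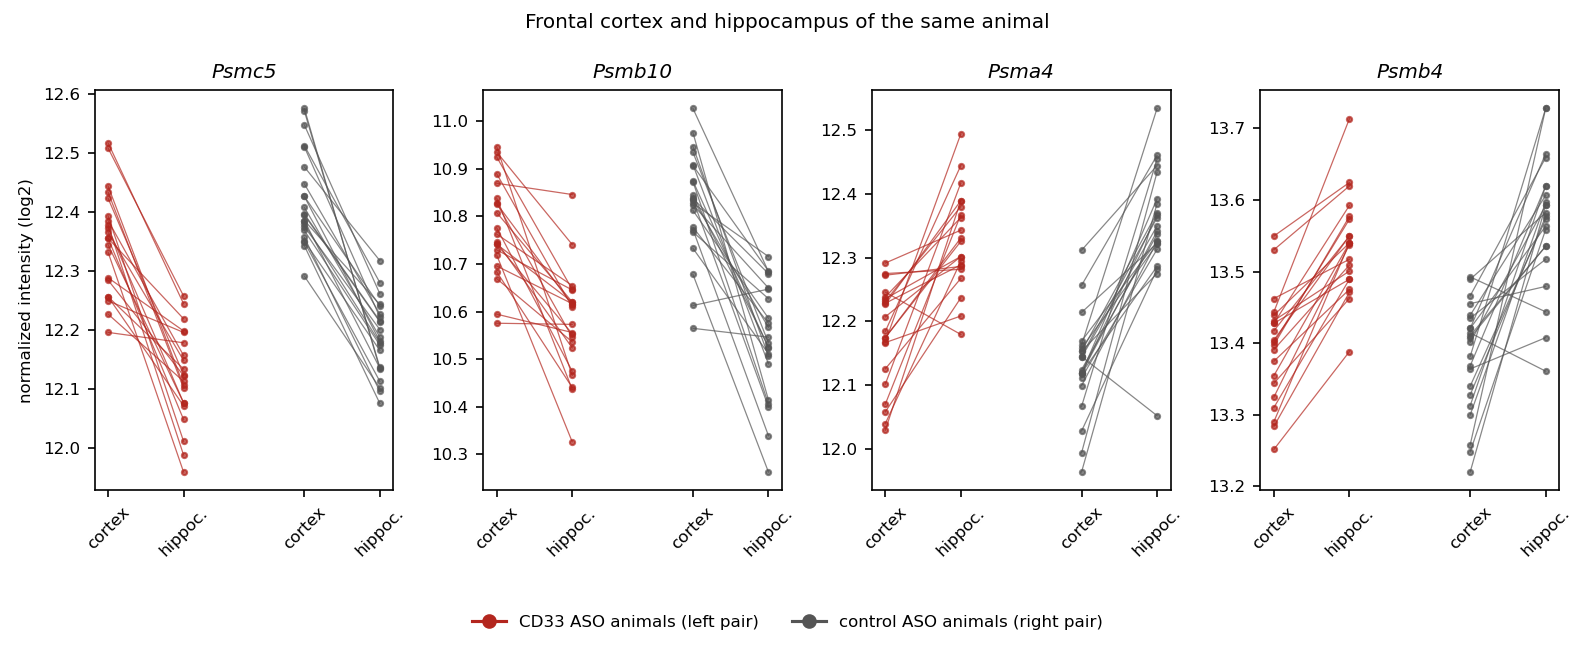
Normalized log2 levels of Psmc5, Psmb10, Psma4 and Psmb4 in frontal cortex (left) and hippocampus (right) of the same animal; each line is 1 of 43 animals. Psmc5 is higher in cortex in 43 animals and Psmb10 in 42, and Psma4 and Psmb4 are lower in cortex in 41 each.

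Of the ATPases, Psmc5 gave the most even difference. It had 12.20, 12.37 and 12.54 in cortex, against 11.96, 12.12 and 12.26 in hippocampus, under the CD33 ASO, and 12.29, 12.40 and 12.58, against 12.08, 12.18 and 12.32, under the control ASO. The difference was 0.24 under both (SE 0.025 and 0.024, adjusted p = 1.62e-14 and 9.72e-15), with cortex higher in 43 of 43 animals. Its second probe gave 0.17 and 0.19. The ranges of Psmc5 in the tissues overlapped at their ends under both ASOs. Psmc1 was higher by 0.079 and 0.074 and did not pass with median scaling (0.036 and 0.035), and Psmc3 differed by -0.14 under both, with the lower value in cortex in 38 of 43 animals. Psmc6 passed as well but is given no fold. It was detected on 17 of 46 cortical arrays, 6 under the CD33 ASO and 11 under the control ASO. It was not well above background on any of 44 hippocampal arrays, so it passed the detection filter through cortex alone. Its measured means were 5.56 ± 0.37 and 5.67 ± 0.58 in cortex (SD, n = 23 each), against 4.97 ± 0.20 and 4.94 ± 0.23 in hippocampus (SD, n = 22 each). Of the base subunits that are not ATPases, Psmd1 differed by -0.12 and -0.13, short of the threshold with the authors' values (-0.040 and -0.050).

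In the lid, Psmd6 and Psmd14 were higher in cortex and both varied from chip to chip. Psmd6 had 6.86, 7.61 and 8.14 in cortex, against 6.08, 6.97 and 7.50 in hippocampus, under the CD33 ASO (0.57 ± 0.13, adjusted p = 4.93e-05), and 6.55, 7.44 and 8.18, against 5.44, 7.07 and 7.64, under the control ASO (0.56 ± 0.13, adjusted p = 5.45e-05). Psmd14 had 9.69, 10.32 and 10.70 in cortex, against 9.63, 9.98 and 10.31 in hippocampus, under the CD33 ASO (0.29 ± 0.062, adjusted p = 3.87e-05), and 0.27 ± 0.062 under the control ASO. Tissues overlapped for both genes. Among the chaperones, Psmd10 was higher by 0.069 and 0.17, of which the CD33 ASO value did not pass with median scaling (0.040), and Psmd5 lower, with differences of -0.23 ± 0.072 and -0.30 ± 0.072. Under the CD33 ASO Psmd5 had 6.67, 7.28 and 7.73 in cortex, against 7.14, 7.51 and 7.92 in hippocampus, and the authors' values gave -0.097 (adjusted p = 0.189).

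Since each chip held 1 tissue, the means of the 6 cortical chips were set against those of the 6 hippocampal chips. For 8 of the 33 genes they did not overlap, 3 higher in cortex (Psmb10, Psmc5 and Psmd10) and 5 lower (Psma4, Psmb2, Psmb3, Psmb4 and Psmd5), while 37.5% of all genes did not overlap, 16.9% higher and 20.6% lower in cortex. Chip means of Psmc5 ran from 12.30 to 12.44 in cortex and from 12.08 to 12.20 in hippocampus. Those of Psmb10 ran from 10.77 to 10.86 and from 10.48 to 10.62. Those of Psma4 ran from 12.07 to 12.21 and from 12.30 to 12.37. By contrast Psmd6 ran from 6.96 to 7.98 in cortex and from 6.57 to 7.25 in hippocampus. The chip accounted for 0.683 of the variance of Psmd6 in cortex (adjusted R2) and 0.551 of that of Psmd14, where the median over these genes was 0.211 and over all genes 0.098. With the chip as a random block in place of the animal, 15 genes passed under the CD33 ASO, 7 higher and 8 lower, and 21 under the control ASO, 7 higher and 14 lower.

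Several genes had another detected probe, and these did not always go together. The second probe of Psmd12, a lid scaffold, was higher in cortex by 0.67 and 0.73 under the CD33 ASO and the control ASO, while the tested one had -0.038 and -0.072. Its chip means ran from 7.39 to 8.37 in cortex and from 7.06 to 7.55 in hippocampus, and after group means were removed it correlated with the tested probe at r = -0.16 in cortex and -0.04 in hippocampus. The second probe of Psmd11, detected on 71 arrays, had 0.45 and 0.63 against 0.051 and -0.020 for the tested one. That of Psmd6, detected on 34 arrays, gave 0.42 and 0.40. Psmd9 had -0.20 and -0.10 from its second probe, and 0.14 and 0.014 from the tested one. The other probes of Psmd10 gave 0.29 and 0.23, and 0.090 and -0.005. Psmd7 (0.21 and 0.12, tested 0.087 and 0.051) and Psma7 (0.0004 and -0.08) completed the set with Psmd2, whose second probe was detected on 40 arrays and gave 0.10 and 0.14, against 0.083 and 0.016 for the tested one. The probes of Psmb2 correlated within tissues at r = 0.65 in cortex and 0.77 in hippocampus and those of Psmb10 at 0.58 and 0.69, and for both genes the probes gave tissue differences in the same direction.

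**Figure D5:**
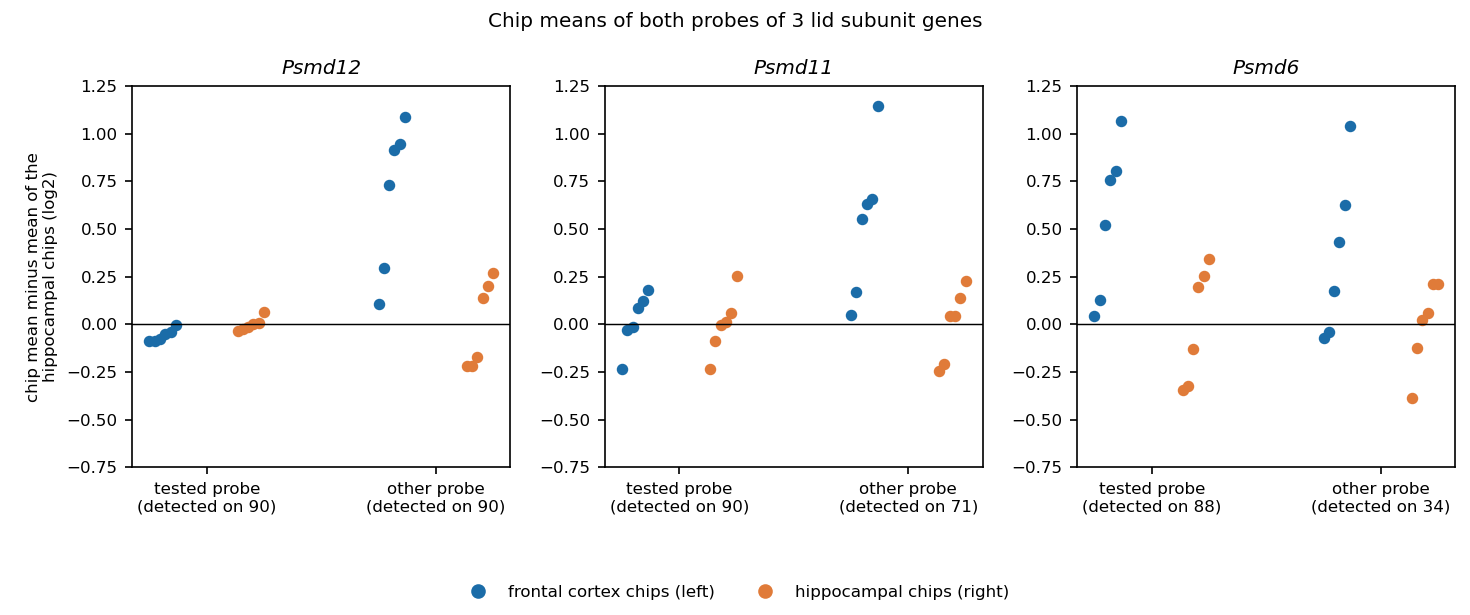
Mean log2 level of each chip, as the difference from the mean of the hippocampal chips, for the tested and the other probe of Psmd12, Psmd11 and Psmd6 (6 cortical and 6 hippocampal chips, each a point). The second probes of Psmd12 and Psmd11 lie higher on cortical chips on average, with overlap. The tested probe of Psmd12 stays near 0, and that of Psmd11 varies between chips of both tissues around the same level (8.37 to 8.79 in cortex, 8.37 to 8.86 in hippocampus).

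Genes that work with the subunits were read in the same comparisons, from lists chosen with earlier results of these data known. Of 20 further proteasome genes (activators, core assembly chaperones and proteins that dock on the cap), 12 were tested and 0 passed in the 4 ASO comparisons. Between the tissues 6 were higher in cortex under each ASO, 3 were lower under the CD33 ASO and 5 under the control ASO, where 29.7% and 30.7% of all genes were higher and 34.1% and 34.6% lower. Those higher by most were Usp14, a deubiquitinase of the cap (0.62 ± 0.10 and 0.64 ± 0.10 under the CD33 ASO and the control ASO), Uchl5, another one (0.42 and 0.38), Ecpas, which holds core and cap together (0.36 and 0.41), and Sem1, a small lid protein (0.30 and 0.35). The core assembly chaperones split, with Pomp at 0.12 and 0.09 and Psmg2 at -0.21 and -0.20.

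Of 8 factors that regulate proteasome genes, 6 were tested and 0 passed in the ASO comparisons. Between the tissues 3 were higher and 0 lower in cortex under the CD33 ASO, and 2 higher and 2 lower under the control ASO. Of all genes, 29.7% were higher and 34.1% lower under the CD33 ASO, and 30.7% and 34.6% under the control ASO. Nfe2l1, the main activator after proteasome inhibition, was higher in cortex by 0.25 ± 0.03 and 0.32 ± 0.03, and Stat3 by 0.56 ± 0.07 and 0.52 ± 0.07. Nfe2l2, its oxidative stress relative, passed under the CD33 ASO (0.19), and the NF-Y subunits Nfyb (-0.24) and Nfyc (-0.06) under the control ASO. Of 18 ubiquitin and delivery genes, 7 were tested and 0 passed in the ASO comparisons. Between tissues 2 were higher and 3 lower under each ASO, beside the shares of all genes just given. The ligase Ube3a was the highest (0.54 and 0.43), and Vcp, the ATPase that extracts ubiquitinated proteins, had -0.07 and -0.06.

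Markers of several cell types were read in the same comparisons. With the choroid plexus, red blood cell and pericyte list means as covariates, 0 of the 33 genes passed in each of the 4 ASO comparisons. Their medians were then 0.006 and 0.012 in cortex at 28 and 14 days, and -0.002 and -0.051 in hippocampus, where 10 of 33 genes lay above 0 at 14 days. Of the 12 named differences, 11 kept their direction, and Psmb1 in hippocampus at 28 days did not. The part of these cells in the duration and tissue comparisons was not tested. Between the tissues all 8 of 8 tested choroid plexus and ependyma markers were called lower in cortex (median -2.03 and -2.35 under the CD33 ASO and the control ASO), and all 3 of 3 red blood cell markers were called higher (0.63 and 0.50). Of all genes, 34.1% and 34.6% were called lower and 29.7% and 30.7% higher. In the ASO comparisons the choroid plexus markers had median differences of -0.067 and 0.035 in cortex at 28 and 14 days and of -0.68 (0 of 8 above 0) and 0.024 in hippocampus. The red blood cell markers had -0.44 and 0.34 in cortex at 28 and 14 days and -0.82 and 0.32 in hippocampus, with 0 of 3 above 0 at 28 days and 3 of 3 at 14 days in each tissue. The pericyte and fibroblast markers had -0.078 and -0.12 in cortex and -0.20 and 0.087 in hippocampus. In the 4 ASO comparisons 0 choroid plexus and 0 red blood cell markers were called. Of the 9 tested pericyte and fibroblast markers, 1 was called lower in cortex at 28 days (all genes called 0.472%), and 0 were called in the other ASO comparisons. Endothelial markers, which were not among the covariates, had -0.17 and -0.077 in cortex and -0.15 and 0.004 in hippocampus. Of the 7 tested, 1 was called lower in cortex and 2 in hippocampus at 28 days (all genes called 0.472% and 0.411%), and 0 at 14 days. The microglial markers had medians of -0.04 and -0.09 in frontal cortex at 28 and 14 days and of 0.04 and 0.08 in hippocampus. All 7 oligodendrocyte markers lay below 0 in each of the 4 ASO comparisons. Of all genes, 50.6% and 49.4% lay above 0 in cortex at 28 and 14 days, and 53.9% and 51.5% in hippocampus. The markers share arrays, so they are not separate observations.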

How the data were processed

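RNA of 90 brain samples was measured on Illumina mouse bead arrays. The authors deposited a signal intensity per probe and array on a linear scale, with a detection p-value, and a second table of processed log2 values, for which no source here describes the steps. BeadStudio, GenomeStudio and Partek are named per the submitters' processing notes, without versions. The neqc function (limma 3.58.1, R 4.3.3, offset 16) corrected background and normalized by quantiles over the 90 arrays, and the offset pulls changes of dim probes toward 0. Probes detected at p under 0.01 on at least 9 arrays were kept, and the probe with the highest mean stood for a gene, which left 9741 genes. The 7349 probes without a symbol were not tested. Groups were compared with lmFit and eBayes of limma, with Benjamini-Hochberg adjustment over the 9741 genes at 0.05. Each tissue had its own model, and tissue contrasts, averaged over durations, used all 90 arrays, with animal as random block (correlation 0.128). The number of arrays limits the precision. The fit was tested on simulated data. Members and lists were chosen with earlier results of these data known. The text names, per comparison, the 5 largest called rises and falls or the 3 smallest p-values, and every gene with several detected probes. Same-numbered arrays of the ASO groups did not deviate together in every pair (correlations from -0.253 to 0.428), so the main model has no replicate block. In frontal cortex at 28 days all 14 pairs did correlate above 0 (0.044 to 0.287, median 0.197). A run with the block is given below.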

Additional observations from a re-analysis of the deposited data

Results flagged for a closer look

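In groups of 9 arrays, 12 of 132 gene and group pairs had 1 array set apart from the others by more than Dixon's 95% critical value (0.493), where chance gives about 1 in 20. Of these, 4 were replicate 9 of the CD33 ASO at 14 days in hippocampus: Psmb2 at 12.20, Psmd7 at 11.45 and Psmd8 at 11.01 were the lowest of the group, and Psmc6, not above background there, at 5.51 the highest. In the same group replicate 6 was the lowest for Psmb4 (13.39). Under the control ASO at 14 days in hippocampus, Psma4 was lowest in replicate 2 (12.05) and Psmb4 in replicate 1 (13.36). In frontal cortex at 14 days under the CD33 ASO, Psma5 (12.50) and Psmc2 (12.79) were lowest in replicates 8 and 9, and Psma7 (11.41) and Psmd13 (12.61) highest in replicates 1 and 3. Under the control ASO there, Psmd8 was lowest in replicate 9 (11.10).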

How the results depend on the processing

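In the 4 ASO, 4 duration and 3 interaction comparisons 0 of the 33 genes passed under each alternative run: no background correction, median scaling, the authors' log2 values, other detection filters, all kept probes, chip as a block and leaving out the animal with control-range Cd33. The 3 marker list means were run for the 4 ASO comparisons only, where 0 passed. With the replicate block, run within tissues, 0 genes passed too. Leaving out that animal left 21 and 22 tissue calls. Tissue calls under the CD33 ASO and the control ASO numbered 20 and 22 with median scaling (7 and 6 higher), 18 and 18 with the authors' values, 18 and 22 without the animal block, and 18 of 30 and 20 of 30 without the genes detected on fewer than 90 arrays. In the authors' values Psmd5 (-0.097) and Psmb5 (-0.088) under the CD33 ASO no longer passed, and the cause was not tested. With the marker list means the difference of Psmb1 in hippocampus at 28 days was -0.0024, against 0.074 without them. Chip and tissue cannot be told apart, and dim probes (Psmc6, Psmd6, Psmd2) limit what was measured.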
